A study of Mus musculus with 18 samples.

Results

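Myoblast fusion joins mononucleate muscle precursors into myotubes, and 10 genes that act at the cell surface or just beneath it during that step were followed here across every library of a C2C12 myotube study. The genes were Mymk, Mymx, Cdh15, Cdh2, Myof, Ncam1, Nphs1, Kirrel, Jam3 and Dock1, taken by matching their symbols to the mouse Ensembl gene IDs of the deposited table. All 10 matched, each to 1 of 48795 gene IDs.

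C2C12 is a mouse myoblast line, here differentiated for 5 days in 2% horse serum before treatment. The 18 libraries of poly-A RNA fell into 6 groups of 3. Control myotubes received 0.1% DMSO for 36 h. Myotubes given ginsenoside Rc (gRc), a saponin of ginseng, received 10 µM or 20 µM for 36 h. Myotubes of the DEX group had 0.1% DMSO for 12 h and then 200 µM dexamethasone (DEX), a synthetic glucocorticoid widely used to model muscle wasting, for 24 h. The 2 combined groups had 10 µM or 20 µM gRc for 12 h and then 200 µM DEX for 24 h, and the labels do not say whether gRc stayed on during that time. DMSO is recorded only for groups without gRc, so vehicle and ginsenoside cannot be told apart from the labels. All groups are the same line after the same differentiation. Whether libraries within a group represent separate cultures is not stated in the labels, and the p-values therefore measure the spread between libraries, which may be technical. The comparisons ask what DEX does to these genes in formed myotubes, what gRc does alone, and whether gRc before DEX alters the response.

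Fusion proceeds in steps. Cells recognise and hold each other through cadherins and through adhesion proteins of the immunoglobulin superfamily, the actin skeleton is rebuilt at the contact, and the membranes are then merged. Myomaker (Mymk), a multipass membrane protein, and myomerger (Mymx), a muscle micropeptide, are the muscle-specific proteins that drive the merger: the first acts in mixing of the outer lipid layers and the second in opening the fusion pore. M-cadherin (Cdh15) and N-cadherin (Cdh2) are calcium-dependent adhesion proteins linked to actin through catenins. Ncam1, nephrin (Nphs1), Kirrel (also called Neph1, a relative of the fusion receptors of fly muscle) and Jam3 are immunoglobulin adhesion proteins. Myoferlin (Myof) is a ferlin of the plasma membrane that serves in fusion and repair, and Dock1 activates the small GTPase Rac1 and so actin assembly.

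The libraries held 32350889 to 45388609 expected counts each. Replicate 2 of the 20 µM gRc group stood apart from the rest. On the second principal component, which held 5.37% of the variance, it lay at -47.9 against -5.38 to 10.6 for the other libraries, and its share of mitochondrial counts was 2.79%, where the other libraries had 1.26% to 1.91%. It fell outside the range of the other 8 libraries without DEX in 65% of tested genes, where those libraries did so in 10.4% to 22.9%. Among the fusion genes it lay above that range for Mymk, Cdh2, Ncam1 and Dock1, below it for Mymx and Jam3, and within it for Cdh15, Myof and Kirrel. Its log2 difference from the other 2 libraries of its group was 0.42 for Mymk, -0.63 for Mymx, 0.52 for Cdh2 and -0.54 for Jam3. The median difference over all tested genes went from -0.12 among the genes of shortest exon length to 0.08 among those of longest, in 4 classes of equal size, and the part of gene length in these values was not tested. Because 1 model was fitted to all libraries, this library widened the error of those genes in every comparison, and the counts of fusion genes called with DEX are given with and without it.

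Of the 10 genes, 9 were expressed well enough to be tested, with 497 to 64203 expected counts per library. Levels between genes were compared as CPM (counts relative to library size, scaled for library composition by TMM) per kilobase of exon. In control myotubes Mymk stood highest at 818 ± 16.7 (SD, n = 3), followed by Cdh15 at 125 ± 2.90, Ncam1 at 77.1 ± 4.03, Mymx at 69.1 ± 4.90, Cdh2 at 39.1 ± 1.78, Myof at 23.6 ± 0.674, Kirrel at 19.8 ± 0.0857, Jam3 at 5.89 ± 0.267 and Dock1 at 3.06 ± 0.129. Only Ncam1 and Mymx met in that order, the lowest Ncam1 library and the highest Mymx library both standing at 73.9 CPM per kilobase. Nphs1, known best from the filter of the kidney, gave 4 counts over all 18 libraries, from 4 libraries with 1 count each, and was not tested. At these depths 3 counts amount to 0.0661 to 0.0927 CPM in a library, so no level of Nphs1 above that could be shown, and this limit covers counting error only. Nphs1 (GRCm38, chromosome 7, 30458315 to 30487223, plus strand) overlaps Nphs1os and Rps12-ps4 on the opposite strand, and since the strand setting of the counting is not given in the sources used here, even these counts cannot be assigned to it.

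**Figure D1:**
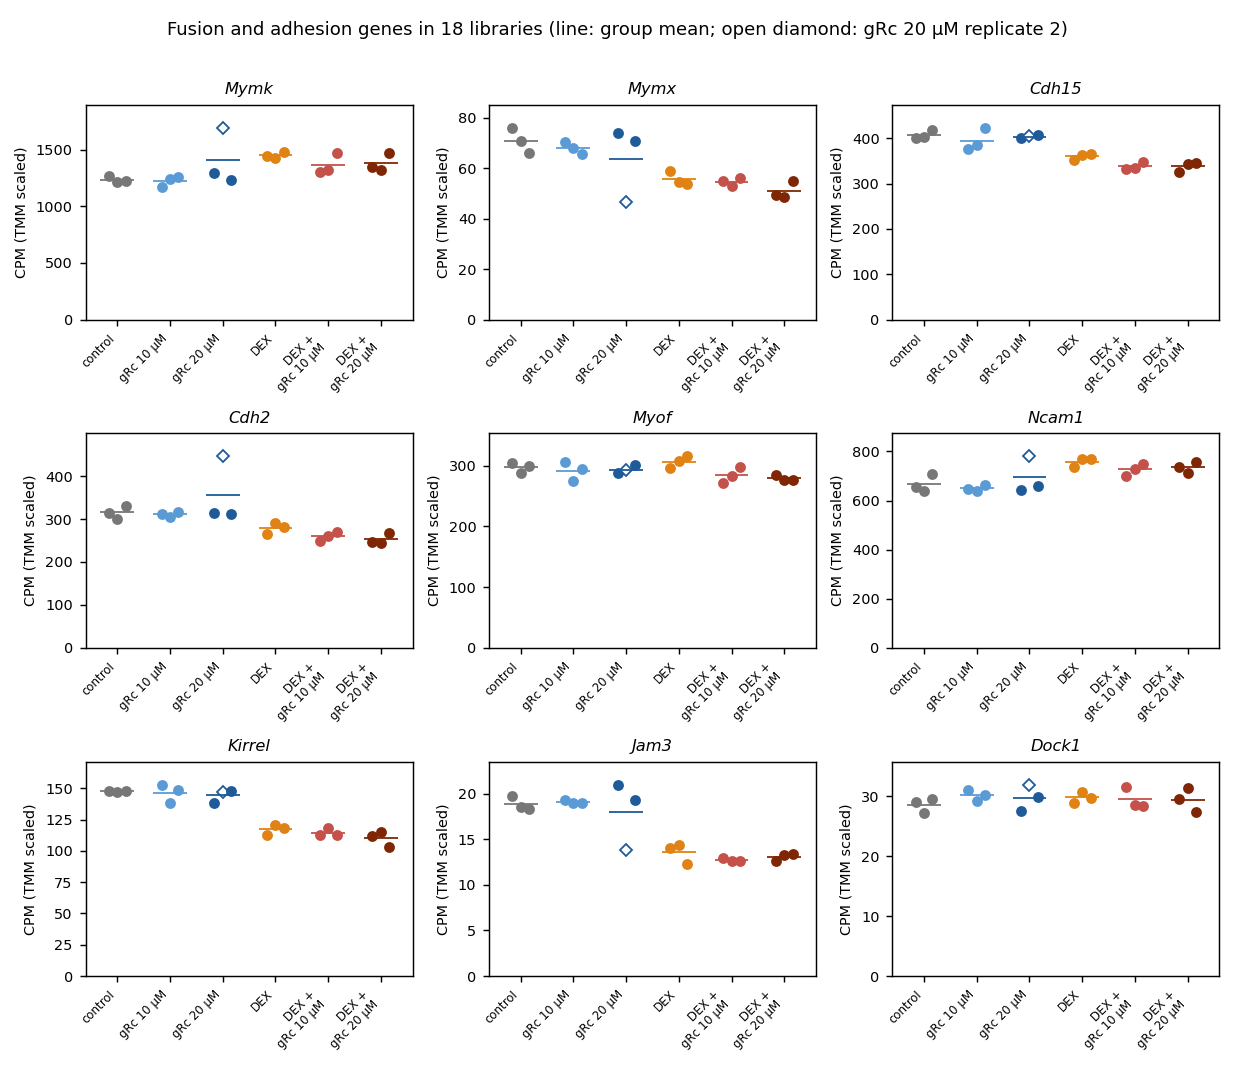
TMM-scaled CPM (vertical axes, from 0) of the 9 tested genes in each of the 18 libraries, by group; points are libraries, lines are group means and the open diamond is replicate 2 of the 20 µM gRc group. Cdh15, Cdh2 and Kirrel sit lower in the 9 libraries with DEX than in the other 9, and so do Mymx and Jam3 apart from the diamond. Dock1 stays between 27.2 and 31.9 CPM throughout.

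DEX changed 6 of the 9 tested genes against control. Mymk and Ncam1 rose, and Mymx, Cdh15, Kirrel and Jam3 fell, by 0.17 to 0.47 in absolute log2 fold change. Cdh2, Myof and Dock1 did not pass. Among all 15436 genes tested 43.8% passed the same threshold (edgeR, adjusted p below 0.05), 20.6% higher and 23.2% lower. The 6 of 9 here stand beside that share as a description, with a median log2 fold change of -0.17 against -0.01 over all genes. In 7 of the 9 genes the 3 DEX libraries did not overlap the 3 controls, against 59.3% of all genes. Without replicate 2 of 20 µM gRc, 7 of 9 passed, Cdh2 being the addition, against 52.4% of all genes. These are bulk RNA values, in which fewer cells of a type and less RNA per cell cannot be told apart.

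The pair of fusogens moved in opposite directions. Mymk (ENSMUSG00000009214, chromosome 2, 27061636 to 27072179, minus strand) stood at 1265, 1218 and 1225 CPM in the control libraries and at 1448, 1424 and 1475 CPM with DEX. Every DEX library lay above every control. The log2 fold change was 0.23 ± 0.09 (SE, edgeR adjusted p = 0.041), and 0.23 ± 0.05 (adjusted p = 0.00036) without the library that stands apart. With that library in the model the call was narrow: it was lost when any of the 6 libraries compared was left out (adjusted p = 0.066 to 0.1) and without composition scaling (0.16, adjusted p = 0.1). With it out, the same exclusions gave adjusted p = 0.00071 to 0.0025 and 0.0062 for this gene.

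Mymx (ENSMUSG00000079471, chromosome 17, 45600971 to 45602102, minus strand) stood at 75.9, 71.0 and 65.9 CPM in the controls and at 59.0, 54.4 and 53.8 CPM with DEX. Here every DEX library lay below every control. Mymx fell by 0.35 ± 0.11 on the log2 scale (edgeR adjusted p = 0.02), and its adjusted p was 6.8e-06 without the library that stands apart. The call was lost without control replicate 1 (adjusted p = 0.081), DEX replicate 2 (0.06) or DEX replicate 3 (0.066), and without the low-count filter (0.065). None of the left-out libraries ended it once the library apart was also left out (adjusted p = 3e-06 to 0.00016 over the 6 exclusions).

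The ratio of the fusogens within a library does not depend on how libraries are scaled. Mymk over Mymx, in CPM, was 16.7, 17.2 and 18.6 in the controls and 24.6, 26.2 and 27.4 with DEX. It was 16.6, 18.3 and 19.1 with 10 µM gRc alone and 23.7, 24.9 and 26.1 when DEX followed. At 20 µM it was 17.6, 36.1 and 17.4 alone, where 36.1 is the library that stands apart, and 27.3, 27.1 and 26.8 with DEX. The 9 libraries with DEX thus ranged from 23.7 to 27.4 and 8 of the 9 without it from 16.6 to 19.1. In exact two-sided permutation tests of the log2 ratio, DEX against none gave p = 0.1 in the controls and at 10 µM, the smallest p that 3 against 3 libraries allow, and p = 0.4 at 20 µM. Adjusted over the 9 ratio tests made, 3 ratios in 3 settings, these were 0.11, 0.11 and 0.4. The ratio rests on the same libraries as the calls of Mymk and Mymx and is not separate support for them.

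Both classical cadherins stood lower with DEX. Cdh15 (ENSMUSG00000031962, chromosome 8, 122847966 to 122867397, plus strand) gave 401, 402 and 417 CPM in the controls and 352, 363 and 365 CPM with DEX. The groups did not overlap. Cdh15 fell by 0.17 ± 0.05 (log2 ± SE, edgeR adjusted p = 0.0049), and it passed under all 13 alternatives run for this comparison (adjusted p = 0.00047 to 0.035).

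RefSeq's window for Cdh15 held several E-boxes, the CANNTG motif that myogenic bHLH factors such as MyoD and myogenin can bind, so these sites are shown. RefSeq's promoter table for GRCm38.p6 (250 bases before to 50 after the start) held windows for 5 of the 10 genes: Cdh15, Myof, Nphs1, Kirrel and Dock1. CANNTG, which reads the same on both strands, occurred 4 times in the Cdh15 window, where 72.3% of all 32544 windows held at least 1 and 6.48% held 4 or more. The first 3 follow on the plus strand, 5′ to 3′, with the E-box in capitals; counted from the start, the motifs begin at -236, -135 and -32. RefSeq's start, at 122848374, lies 408 bases inside exon 1 of Cdh15 as GENCODE annotates it (122847966 to 122848529, coding from 122848488), so by GENCODE the 3 sites are exonic, in the 5′ UTR, and not upstream of the gene.
Cdh15 site 1, chr8:122848126-122848155: aggcactgatcaCATATGctgtcactcaga
Cdh15 site 2, chr8:122848227-122848256: caggcccacctaCATGTGctgtcactcatc
Cdh15 site 3, chr8:122848330-122848359: cgccccaccacaCACGTGcagtcccttggc
The letters differ in the 2 central bases of the motif, and neither CAGCTG nor CACCTG was in the window, letters that 16.4% and 20.3% of windows hold. GGGCGG, the GC box, occurred 3 times over both strands, and 10.8% of windows held 3 or more. A match describes the letters only; binding was not measured.

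Cdh2 (ENSMUSG00000024304, chromosome 18, 16588877 to 16809246, minus strand) gave 315, 301 and 330.1 CPM in the controls and 265, 291 and 282 CPM with DEX. As for Cdh15, the groups did not overlap, but the change of -0.18 ± 0.10 missed the threshold (edgeR adjusted p = 0.17). Without the library that stands apart the same -0.18 had a standard error of 0.05 and an adjusted p of 0.0023. Cdh2 also passed without composition scaling (adjusted p = 0.034) and in a model of the control and DEX groups alone (0.0051). Across the 18 libraries the 2 cadherins kept their order, Cdh15 standing at 100.0 to 129.9 CPM per kilobase and Cdh2 at 30.3 to 55.3.

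Among the immunoglobulin adhesion genes, Ncam1 rose while Kirrel and Jam3 fell. Ncam1 (ENSMUSG00000039542, chromosome 9, 49502136 to 49798925, minus strand) stood at 657, 640.0 and 707 CPM in the controls and at 735, 768 and 768 CPM with DEX. All DEX libraries were above all controls. Ncam1 rose by 0.18 ± 0.06 (log2 ± SE, edgeR adjusted p = 0.027; 0.00097 without the library that stands apart). The call was lost without control replicate 1 (adjusted p = 0.081), control replicate 2 (0.11), DEX replicate 2 (0.073) or DEX replicate 3 (0.078), and without composition scaling (0.11, adjusted p = 0.11). With the library apart also left out, the 6 exclusions gave 0.00021 to 0.01 and the unscaled fit 0.026. Ncam1 overlaps Gm11149 on the opposite strand.

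Kirrel (ENSMUSG00000041734, chromosome 3, 87078593 to 87174747, minus strand) had the tightest controls of the set, 148, 147 and 148 CPM, and 113, 120.4 and 118 CPM with DEX. It fell by 0.33 ± 0.05 (log2 ± SE, edgeR adjusted p = 2.7e-05). Jam3 (ENSMUSG00000031990, chromosome 9, 27097384 to 27155421, minus strand) is expressed far lower, at 19.8, 18.5 and 18.3 CPM in the controls and 14.0, 14.4 and 12.3 CPM with DEX. It fell by 0.47 ± 0.11 (edgeR adjusted p = 0.0012), the furthest of the 9 genes. Neither gene's groups overlapped, and each passed under all 13 alternatives, with adjusted p up to 0.00034 for Kirrel and 0.01 for Jam3. The Kirrel window of RefSeq, in contrast to that of Cdh15, held no CANNTG and 1 GC box; the 40 bases of it that lie before the annotated gene are printed on the gene's strand, 5′ to 3′.
Kirrel, chr3:87174748-87174787, minus strand: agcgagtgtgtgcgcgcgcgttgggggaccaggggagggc

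Ratios within a library set the adhesion genes against each other. Ncam1 over Cdh15, in CPM, was 1.64, 1.59 and 1.69 in the controls and 2.09, 2.11 and 2.11 with DEX. Ncam1 over Cdh2 was 2.08, 2.12 and 2.14 in the controls and 2.77, 2.64 and 2.73 with DEX. At 10 µM and 20 µM gRc the means with DEX were 2.14 ± 0.0390 and 2.18 ± 0.0933 (SD, n = 3) for the first ratio and 2.79 ± 0.0343 and 2.90 ± 0.0767 for the second. Without DEX they were 1.65 ± 0.0757 and 1.72 ± 0.182, and 2.09 ± 0.00601 and 1.98 ± 0.202. All 9 DEX libraries exceeded all 9 others in both ratios, the library that stands apart included (1.93 and 1.75). Each of these 6 exact two-sided permutation tests gave p = 0.1, the smallest possible, and 0.11 adjusted over 9. A ratio does not say which of its genes moved. Both ratios set a gene that stood higher with DEX over one that stood lower in the same libraries. Beyond being free of library scaling, they add no separate support to the values of the single genes.

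**Figure D2:**
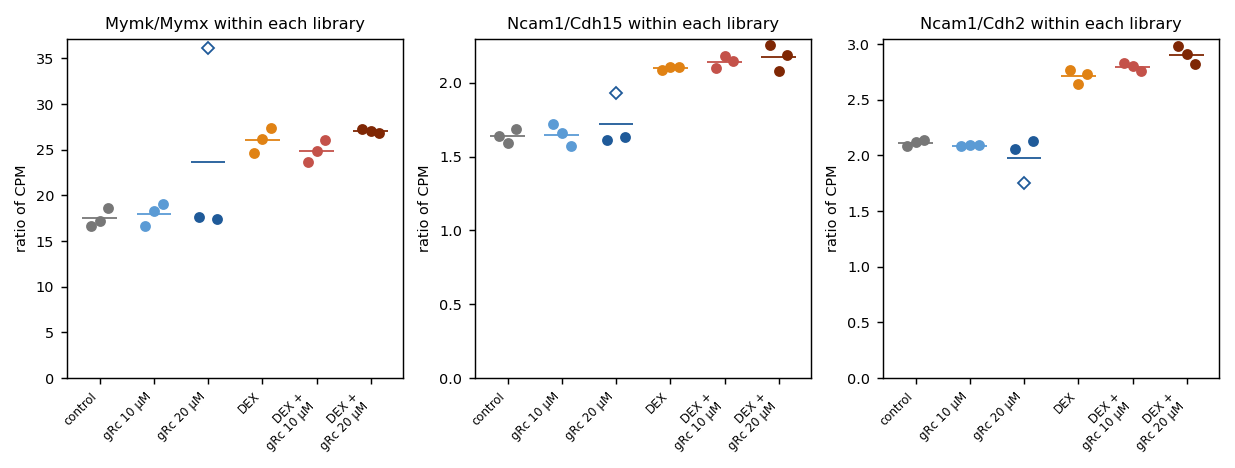
Ratios of CPM within each library for Mymk over Mymx, Ncam1 over Cdh15 and Ncam1 over Cdh2 (vertical axes from 0), by group; points are libraries, lines are group means and the open diamond is replicate 2 of the 20 µM gRc group. The Mymk to Mymx ratio sits between 23.7 and 27.4 with DEX and between 16.6 and 19.1 without, except for the diamond at 36.1.

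Myof and Dock1 did not pass. Myof (ENSMUSG00000048612, chromosome 19, 37899036 to 38043577, minus strand) stood at 288 to 304 CPM in the 3 controls and at 296, 308 and 315 CPM with DEX, which overlap. The log2 fold change was 0.04 ± 0.05, with a 95% interval from -0.06 to 0.14 (edgeR adjusted p = 0.5), and it was -0.02 without composition scaling. Dock1 (ENSMUSG00000058325, chromosome 7, 134670654 to 135173639, plus strand) stood at 29.0, 27.2 and 29.5 CPM in the controls and 28.9, 30.7 and 29.7 CPM with DEX. Its change was 0.06 ± 0.07, with an interval from -0.08 to 0.20 (edgeR adjusted p = 0.5). Both intervals leave out falls as large as those of Kirrel and Jam3, and neither shows that the gene did not change.

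The upstream stretches of these 2 genes, which did not pass, are shown beside that of Kirrel because their base composition lies at the extremes of the 5 windows. Neither printed stretch holds a whole E-box, so they carry no capitals. The Myof window held 46.3% G and C and 15 CpG, the Dock1 window 70.7% and 34, and the median window 53% and 7. Myof held none of the motifs searched, which beside those above were AGAACA (a glucocorticoid half-site, in 18.9% of windows), the full palindromic glucocorticoid response element (0.00922%) and TATAAA (13.6%), each on both strands. Dock1 held 1 CANNTG, which begins at -36 in the final bases of the printed stretch and runs past its end, and 3 GC boxes beginning at -124, -51 and -47, the last pair overlapping. Among the 5 windows only that of Nphs1 held AGAACA, 1 time. No match says only that these letters are not in this window.
Myof, chr19:38043578-38043827, minus strand: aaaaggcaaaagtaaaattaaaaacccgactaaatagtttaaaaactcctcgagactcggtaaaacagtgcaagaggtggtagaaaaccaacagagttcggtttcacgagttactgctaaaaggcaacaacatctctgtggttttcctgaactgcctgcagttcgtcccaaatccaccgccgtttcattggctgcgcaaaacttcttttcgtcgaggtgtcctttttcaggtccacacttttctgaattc
Dock1, chr7:134670437-134670653, plus strand: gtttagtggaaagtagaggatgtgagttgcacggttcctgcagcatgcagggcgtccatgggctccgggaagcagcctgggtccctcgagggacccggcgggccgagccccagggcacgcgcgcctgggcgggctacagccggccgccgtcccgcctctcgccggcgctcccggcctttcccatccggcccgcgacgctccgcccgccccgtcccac

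DEX was also compared with no DEX among the libraries given gRc. These comparisons share no library with the first or with each other, although 1 error estimate served all. At 10 µM gRc, 6 of the 9 genes passed, Ncam1 higher and Mymx, Cdh15, Cdh2, Kirrel and Jam3 lower, against 44.2% of all genes. At 20 µM, 5 of 9 passed, all lower and the same 5, against 48.9%. Lower calls alone took 23% and 25.4% of all genes at the 2 doses. Mymx, Cdh15, Kirrel and Jam3 were called lower in all 3 comparisons, 4 of 9 genes or 44.4%, where 18.7% of all genes were called lower in all 3. Without the library that stands apart Cdh2 joined them, and Ncam1 was called higher in all 3, so that 6 of 9 (66.7%) were called in 1 direction throughout, against 41.7% of all genes. The calls of Ncam1 with gRc depended on scaling. With the library apart out and no composition scaling they were lost at 10 µM and 20 µM (edgeR adjusted p = 0.071 and 0.088). The counts without it were 7 of 9 at 10 µM (53.1% of all genes) and 6 of 9 at 20 µM (51.4%).

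The values of Kirrel and Cdh15 changed little with the background of gRc. Kirrel gave 153, 138 and 149 CPM with 10 µM gRc and 113, 118 and 113 CPM when DEX followed (-0.36 ± 0.05, edgeR adjusted p = 1.1e-05). At 20 µM it gave 138, 147 and 148 CPM and, with DEX, 112, 115 and 103 CPM (-0.39 ± 0.05, edgeR adjusted p = 3.1e-06). Cdh15 gave 376, 385 and 422 CPM with 10 µM gRc and 333, 335 and 348 CPM with DEX (-0.22 ± 0.05, adjusted p = 0.00072). At 20 µM Cdh15 gave 401, 404 and 406 CPM and, with DEX, 325, 342 and 346 CPM (-0.26 ± 0.05, adjusted p = 0.00016). No library with DEX reached any library without it for these 2 genes at either dose. Such a lack of overlap was common, with 59.3% of all genes for DEX against control. The share at these 2 doses is not given. Without the library that stands apart the changes at 10 µM and 20 µM were -0.36 and -0.38 for Kirrel and -0.22 and -0.26 for Cdh15 (edgeR adjusted p = 9.3e-05 or less).

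Jam3, Mymx and Cdh2 depended in size on the library that stands apart. Jam3 gave 19.3, 19.0 and 19.0 CPM with 10 µM gRc and 13.0, 12.6 and 12.6 CPM with DEX (-0.58 ± 0.11, edgeR adjusted p = 0.00018). At 20 µM Jam3 gave 21.0, 13.8 and 19.3 CPM, the middle value being the library apart, and 12.6, 13.3 and 13.4 CPM with DEX. That change was -0.46 ± 0.11 (edgeR adjusted p = 0.0014) with the library and -0.62 (3.1e-08) without it. Mymx gave 70.6, 67.9 and 65.7 CPM with 10 µM gRc and 55.0, 52.9 and 56.1 CPM with DEX (-0.32 ± 0.12, adjusted p = 0.033). At 20 µM Mymx gave 73.8, 46.8 and 70.8 CPM and, with DEX, 49.4, 48.8 and 54.9 CPM, a change of -0.32 (edgeR adjusted p = 0.027) that was -0.51 (1.5e-07) without the library. For Mymx at 20 µM the library apart, at 46.8 CPM, lay below all 3 DEX libraries. With it in the model the call at 20 µM was lost without gRc replicate 1 (-0.21, edgeR adjusted p = 0.15) or 3 (-0.24, 0.12), without replicate 1 (0.081) or 2 (0.089) of the combined group, without the low-count filter (0.078) and in a model of the compared groups alone (0.16).

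Cdh2 gave 311, 305 and 317 CPM with 10 µM gRc and 248, 261 and 271 CPM with DEX (-0.26 ± 0.10, edgeR adjusted p = 0.043). At 20 µM it gave 313, 446 and 311 CPM and, with DEX, 247, 244 and 268 CPM. The change of -0.49 ± 0.10 (edgeR adjusted p = 0.00044) was -0.30 (2.4e-05) without the library apart, which at 446 CPM was the highest of all 18. At 10 µM the calls of Mymx, Cdh2 and Ncam1 were each lost when any of the 6 libraries compared was left out, leaving 3 genes called. With only the library apart left out, all 3 passed (adjusted p = 2.5e-05, 4.4e-05 and 0.0026).

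Mymk and Ncam1, the genes that rose, did not all pass with gRc. Mymk gave 1174, 1245 and 1254 CPM with 10 µM gRc and 1304, 1317 and 1467 CPM with DEX. The groups did not overlap, and the change of 0.15 ± 0.09 missed the threshold (edgeR adjusted p = 0.17; 0.01 without the library apart). At 20 µM it gave 1297, 1689 and 1229.5 CPM and, with DEX, 1346, 1324 and 1468 CPM, a change of -0.03 ± 0.09 (edgeR adjusted p = 0.83) that turned to 0.13 (0.059) without the library at 1689. Ncam1 gave 648, 638 and 663 CPM with 10 µM gRc and 700.1, 730.2 and 749 CPM with DEX (0.16 ± 0.06, adjusted p = 0.046). At 20 µM Ncam1 gave 644, 779.7 and 661 CPM and, with DEX, 735, 711 and 758 CPM, a change of 0.08 (edgeR adjusted p = 0.32) that was 0.17 (0.0046) without the library at 779.7. For Myof and Dock1 the changes at both doses lay between -0.07 and -0.02, and neither passed. Myof depended on scaling. With the library apart out and no composition scaling it passed as lower at 10 µM (-0.11, edgeR adjusted p = 0.032) and 20 µM (-0.15, 0.011).

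**Figure D3:**
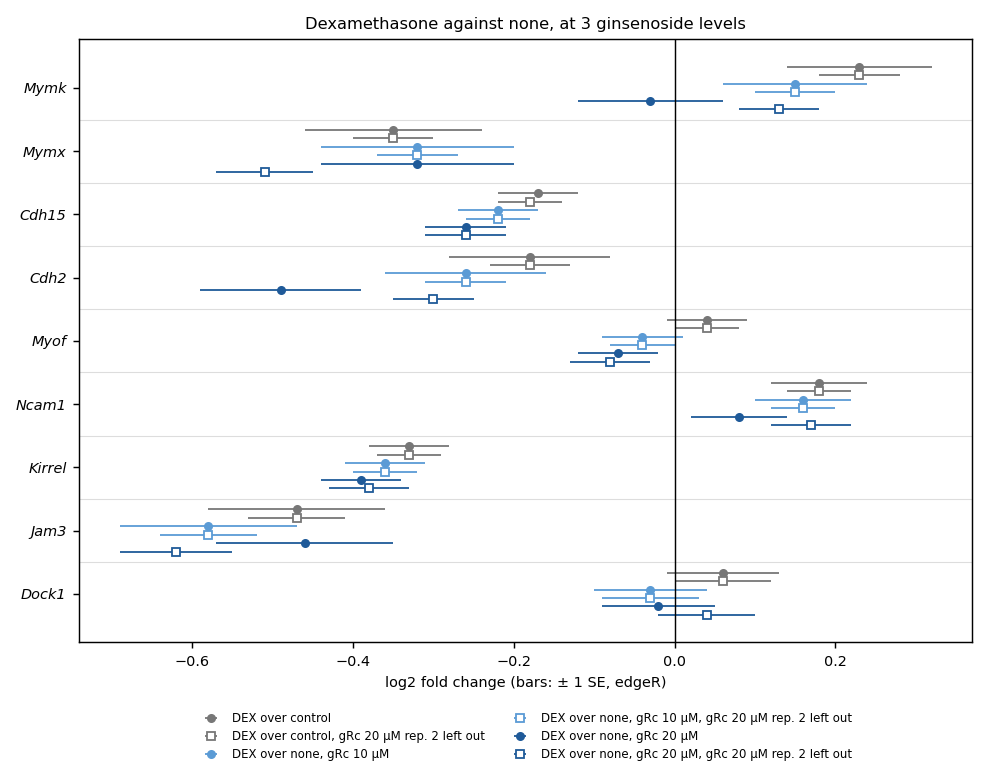
Log2 fold change of DEX over no DEX (horizontal axis, bars ± 1 SE from edgeR) for the 9 tested genes at 3 gRc levels; filled circles use all 18 libraries and open squares leave out replicate 2 of the 20 µM gRc group. Mymx, Cdh15, Cdh2, Kirrel and Jam3 lie left of 0 in every fit shown. At 20 µM Mymk moves from -0.03 to 0.13 and Cdh2 from -0.49 to -0.30 when that library is left out.

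None of the 9 genes passed for gRc. Against control, 0 of 9 passed at 10 µM and 0 of 9 at 20 µM, where 0.00648% and 0.104% of all genes passed (edgeR, adjusted p below 0.05). With DEX on both sides 0 of 9 passed at each dose, against 0.0259% and 0.369% of all genes. For the interaction, the difference between the DEX effects with and without gRc, 0 of 9 passed at each dose, against 0% of all genes. DESeq2 called 0 of the 9 genes in each of these 6 comparisons too. Since so few genes pass anywhere, these shares say little about the 9 genes in particular.

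Before adjustment, 0 of 9 genes lay below 0.05 in the edgeR test for 10 µM alone, and 1 of 9 for 20 µM alone. That was Mymk at 0.18 ± 0.09 (edgeR adjusted p = 0.53), which was 0.03 without the library that stands apart. With DEX it was 1 of 9 at each dose, Myof, and for the interaction 0 at 10 µM and 1 at 20 µM, Cdh2. The 95% intervals of the log2 change at 10 µM alone bound what could have been missed: -0.20 to 0.17 for Mymk, -0.30 to 0.18 for Mymx, -0.14 to 0.05 for Cdh15 and -0.11 to 0.10 for Kirrel.

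With DEX, Myof came nearest to the threshold. It gave 296, 308 and 315 CPM with DEX alone, 272, 283 and 297 CPM after 10 µM gRc and 285, 276 and 276 CPM after 20 µM. The log2 change was -0.11 ± 0.05 at 10 µM (edgeR adjusted p = 1) and -0.13 ± 0.05 at 20 µM (edgeR adjusted p = 0.32). The 20 µM libraries all lay below those of DEX alone, the 10 µM ones did not. Cdh15 lay below DEX alone in all 3 libraries at both doses, by 0.09 ± 0.05 at each, with edgeR adjusted p = 1 and 0.62. All 9 estimates were below 0 at both doses, from -0.14 to -0.01, but the 2 comparisons share the DEX libraries, so these are not separate observations, and 1 and 2 of 9 genes had groups that did not overlap, against 10.8% and 14.9% of all genes. For the genes that fell with DEX these estimates lie on the same side as the DEX change, and for Mymk and Ncam1 on the other side, all short of the threshold.

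The interaction was largest for Cdh2 at 20 µM, at -0.32 ± 0.14 (edgeR adjusted p = 0.88), and it was -0.13 ± 0.07 without the library that stands apart. For Mymk at 20 µM it was -0.26 ± 0.12 (edgeR adjusted p = 0.88), and -0.10 ± 0.07 without it. At 10 µM the interactions of the 9 genes lay between -0.11 and 0.03, with standard errors of 0.07 to 0.16.

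**Figure D4:**
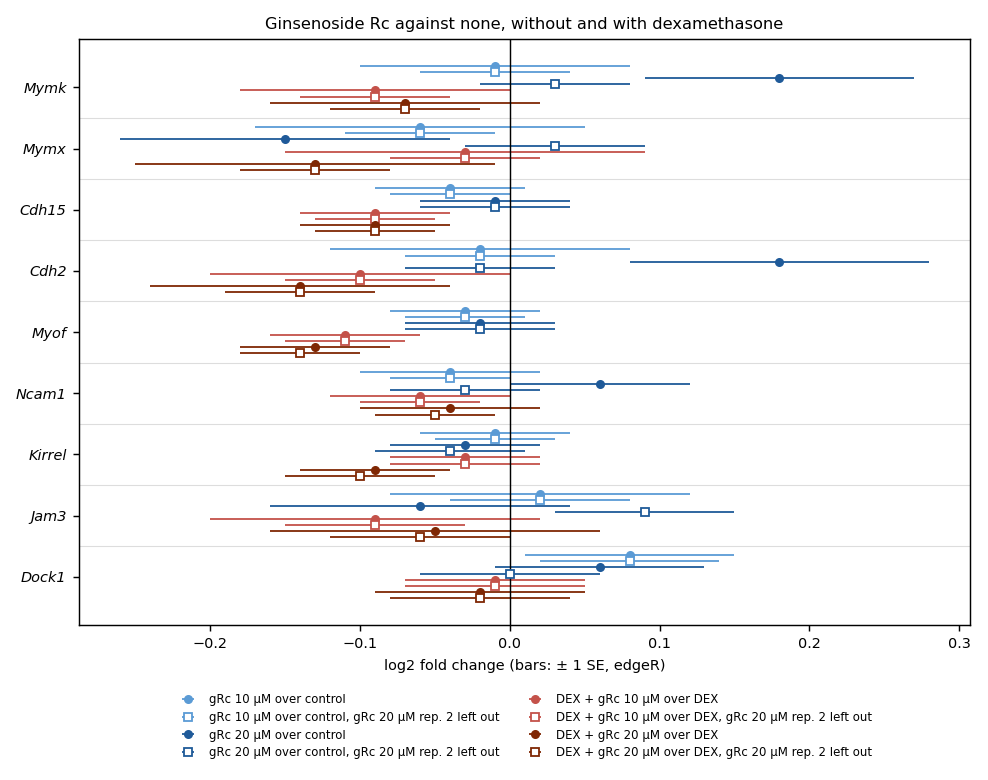
Log2 fold change for gRc over no gRc (horizontal axis, bars ± 1 SE from edgeR) in the 9 tested genes, without DEX (blue) and with DEX (red and brown); filled circles use all 18 libraries and open squares leave out replicate 2 of the 20 µM gRc group. Mymk and Cdh2 at 20 µM alone both move from 0.18 to near 0 (0.03 and -0.02) when that library is left out.

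The wider machinery of fusion and adhesion, 167 genes in 6 lists apart from the 10 above, had 151 tested genes, of which DEX raised 36 and lowered 52, or 58.3%, beside the 43.8% of all genes. The median log2 change was -0.04. Without the library that stands apart 42 rose and 57 fell, or 65.6%, beside 52.4% of all genes. The lists were chosen with earlier results of these data known, and no test of them against other genes was made. Of the actin machinery of fusion 5 of 32 tested genes rose and 7 fell (median 0.00). Elmo1, a partner of Dock1 in activating Rac1, rose from 2.04 ± 0.290 to 8.35 ± 0.633 CPM (SD, n = 3; log2 2.03 ± 0.14, edgeR adjusted p = 9.6e-10), and Arhgap10, a GTPase-activating protein, rose by 0.70. Pak1, a kinase downstream of Rac1, fell by 0.78 and Wipf1, which holds WASP proteins, by 0.50. So Elmo1 rose and its partner Dock1 did not pass.

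Of the membrane, lipid and tetraspanin genes 4 of 26 rose and 9 fell (median -0.13). Bin1, which bends membranes into tubules, rose by 0.61 (957 ± 15.2 to 1465 ± 69.3 CPM) and the annexin Anxa6 by 0.23. Ptgfrn, a partner of tetraspanins, fell by 0.70 (664 ± 14.0 to 409 ± 15.6 CPM, edgeR adjusted p = 7.4e-10), and the tetraspanin Cd53 fell by 2.66 from a low level. Of the cadherin, catenin and pro-myogenic receptor genes 8 of 21 rose and 6 fell (median 0.13). Cdh13, a cadherin anchored by a lipid, rose by 0.70 and the p38 kinase Mapk14 by 0.69. Cdon, a receptor that associates with cadherins in myoblasts, fell by 1.18 (658 ± 13.6 to 290.2 ± 24.9 CPM) and Cdh11 by 1.39. Cadherin genes therefore went both ways: Cdh15 and Cdh11 fell and Cdh13 rose.

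Of the other immunoglobulin adhesion genes 7 of 18 rose and 6 fell (median -0.03). F11r, a relative of Jam3, rose by 0.53, and Cadm1 by 0.48. Kirrel3, a paralogue of Kirrel, fell by 2.74 (8.89 ± 0.0254 to 1.32 ± 0.406 CPM, edgeR adjusted p = 4.4e-10) and Vcam1 by 1.35. Of the integrin and focal adhesion genes 3 of 23 rose and 9 fell (median -0.01). The adaptor gene Lims2 rose by 1.37 and the metalloprotease gene Adam9 by 0.53, while the integrin chains Itga6 and Itga9 fell by 1.02 and 1.10.

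Of the signals and regulators of fusion 9 of 31 rose and 15 fell (median -0.15). Igf1, a growth factor for muscle, fell by 3.49 (110.4 ± 3.91 to 9.82 ± 3.09 CPM) and the receptor gene Tgfbr2 by 0.67. The myogenic factor gene Myf6 rose by 2.14 and Klf2 by 1.16. The members of this list act in both directions on fusion, so its median has no single reading.

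In the gRc comparisons 0 of these 151 genes passed, except for 20 µM with DEX against DEX alone. There 5 of 151 passed, or 3.31% beside 0.369% of all genes, 1 higher and 4 lower. These shares are a description only, since the lists were chosen with earlier results of these data known. Cdon and Itga6, both lowered by DEX, were lower still: Cdon gave 266, 315 and 289 CPM with DEX and 209, 213 and 242 CPM after gRc (-0.39 ± 0.07, edgeR adjusted p = 0.025), and Itga6 64.7, 60.8 and 59.7 against 48.7, 49.5 and 51.9 CPM (-0.30 ± 0.05, edgeR adjusted p = 0.011). Tgfbr2 fell by 0.25 (adjusted p = 0.029). Trio and the chemokine gene Cxcl12 were named after their values were seen; Trio fell by 0.37 (adjusted p = 0.03) and Cxcl12 rose by 0.32 (0.022). The libraries of the groups did not overlap for any of the 5, where 14.9% of all genes had no overlap. The 5 were picked because they passed in these same libraries, so the lack of overlap adds no support. The count rested on single libraries: it was 0 without replicate 1 or 2 of the combined group, 1 and 2 without DEX replicates 2 and 3, 11 without replicate 3 of the combined group, 9 without the library that stands apart and 10 by DESeq2.

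Markers of cell states moved with DEX, and their part in the changes above was not tested. Their counts stand beside 43.8% of all genes called with DEX, 20.6% higher and 23.2% lower, or 52.4% without the library that stands apart. Of 22 markers of differentiated myotubes 15 rose and 4 fell, and their summed level went from 37055 to 38319.5 CPM over the control libraries to 42262 to 44435 CPM with DEX, Acta1 being the highest. Of the 18 undifferentiated myoblast markers 16 were tested, 6 rose and 8 fell, with sums of 889 to 904 and 927 to 951 CPM. Of 15 markers of cycling cells 1 rose and 14 fell, with sums of 452 to 458 and 226 to 249 CPM. The 1 that rose, Rrm2, was the highest of them, at 99.7 to 103 CPM in the controls and 138 to 145 CPM with DEX. The sums therefore understate the fall of the others, and the median log2 change of the list was -2.99. Of 11 fibroblast markers 9 were tested, 2 rose and 5 fell, with sums of 7333 to 7864 and 3833 to 4423 CPM; most of that was collagen, Tcf21 was at 0 in all libraries, and myoblasts make collagen too. Of 7 adipocyte markers the 2 tested rose, with sums of 3.71 to 3.91 and 8.68 to 10.8 CPM and Cfd at 0. Of 12 endothelial, immune and neural markers 6 were tested, 1 rose and 1 fell, with sums of 3.01 to 3.33 and 2.37 to 2.42 CPM. Without the library that stands apart 17 myotube markers rose and 4 fell, 6 fibroblast markers fell and 2 of the endothelial, immune and neural markers fell, and the other marker counts were as above. Defining myotube genes were abundant in all 6 groups, with Acta1 at 5759 CPM or more in every library.

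The genes most like the 2 fusogens were ranked over the 18 libraries by Pearson's r of log2 CPM among 11777 candidates, as a description. For Mymk these were H13 (r = 0.960), Clptm1 (0.950) and 4833439L19Rik (0.939), and over the 17 libraries without the one that stands apart their r were 0.934, 0.918 and 0.926. For Mymx they were Dtd2 (0.969), Fopnl (0.958) and Sec61b (0.958), with 0.965, 0.951 and 0.952 over 17. The points share the groups and, in the first case, a library far from the rest. With DEX against control H13 changed by 0.09 and Clptm1 by 0.16, which did not pass, while Dtd2, Fopnl and Sec61b fell by 0.32, 0.23 and 0.51 (edgeR adjusted p = 0.035, 0.03 and 0.041).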

How the data were processed

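Per the labels' protocols, poly-A RNA gave directional libraries read as 100 bp pairs. Tools listed in the submitters' processing notes are STAR 2.7.3a, RSEM 1.3.3, Trim Galore 0.6.5 and FastQC 0.11.9, with build GRCm38 (mm10). The annotation release was not given in the sources used here, nor was the strand setting. The authors deposited expected counts per gene, RSEM's estimates, of which 9.27% were not whole; they were rounded. A reference list of gene names named 48349 of 48795 IDs, and GENCODE vM21 gave coordinates and exon lengths.

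Genes were filtered with filterByExpr (15436 of 27028 with any count) and scaled by TMM. edgeR 4.0.16 (R 4.3.3) fitted 1 mean per group to all 18 libraries by robust quasi-likelihood, with Benjamini-Hochberg adjustment over all genes at 0.05. Standard errors are log2 changes over root F, and 95% intervals use them. The fit was also run on simulated data in which few genes changed, in the DEX group only, and no library stood apart. That setting is simpler than these data. The members and lists were chosen with earlier results of these data known. Named from each list were the 2 genes with the smallest adjusted p in each direction with DEX (average log2 CPM of at least 1), and the 3 genes most like Mymk and Mymx. Alternatives were other scalings, no filter, DESeq2 1.42.0, only the compared groups, a replicate block and leaving out libraries. The combinations of an alternative with replicate 2 of 20 µM gRc also left out, and the alternatives for the 5 list genes of the 20 µM comparison with DEX, were chosen after seeing the data.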

Additional observations from a re-analysis of the deposited data

Results flagged for a closer look

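Jam3 at 10 µM gRc was picked out because its libraries lay on opposite sides of their reference means without and with DEX. Every library with gRc alone lay above the control mean, and every library of the combined treatment lay below the mean of DEX alone. The log2 change was 0.02 ± 0.10 (SE) for gRc against control and -0.09 ± 0.11 for the combined treatment against DEX. The criterion compares signs and is no test; the interaction of the same libraries was -0.11 ± 0.15 (edgeR adjusted p = 1), so the difference did not pass.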

How the results depend on the processing

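Of the 9 fusion genes, 6 were called with DEX against control, and the count was 3 to 7 when a library was left out: 3 without control replicate 1, DEX replicate 2 or DEX replicate 3. At 10 µM gRc it was 6 and became 3 without any of the 6 libraries compared, with a range of 3 to 7; at 20 µM it was 5, with 4 to 6. When replicate 2 of 20 µM gRc was left out as well, the count with DEX against control was 7 in each of 8 settings. At both 10 µM and 20 µM gRc the count was then 6 without composition scaling and 7 by DESeq2. Those 6 were all lower, with Myof among them and neither Mymk nor Ncam1. At 10 µM the count was 6 to 7 when a further library was left out. At 20 µM some of these fits leave 1 sample in an arm, and no count is given for them. Leaving 1 sample in an arm assumes that it varies like the other groups. The sign of Mymk for DEX at 20 µM gRc turned from -0.03 to 0.13 (DESeq2, adjusted p = 0.035) with that library left out, and to 0.15 (edgeR adjusted p = 0.034) with replicate 2 of the combined group left out too; these are the calls that turned, and leaving out libraries gave -0.11 to 0.16 in all. Of 911 values short of the threshold in both settings, 39 differed in sign. Without composition scaling the genes called with DEX were 15.3% higher and 28.5% lower, against 20.6% and 23.2%, and the fusion genes 0 higher and 5 lower.

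Replicate numbers did not pair the libraries: correlations of same-numbered deviations ran from -0.196 to 0.15, other pairs from -0.14 to 0.221, and 5 of 18 libraries correlated best with their own number. With the replicate block 5, 6 and 5 fusion genes were called with DEX at 0, 10 and 20 µM gRc; Mymk with DEX had adjusted p = 0.051. Counts over all genes moved more: 1 (0 to 10 over the alternatives) for 10 µM, 16 (0 to 107) for 20 µM, 4 (0 to 17) and 57 (6 to 349) for these doses with DEX, and 0 (0 to 2) for the 20 µM interaction. Nphs1 was the only fusion gene with too few counts to be tested, and the part of depth in the other values was not tested.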
